A study of Mus musculus with 40 samples.

Results

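The transcripts described here are 10 RNAs of the mouse mitochondrial genome, measured by RNA-seq in hearts of mice that express interleukin 11 (IL11) in cardiomyocytes. They were selected by gene name and comprise *mt-Nd1*, *mt-Nd2*, *mt-Nd4*, *mt-Nd5*, *mt-Cytb*, *mt-Co1*, *mt-Co2*, *mt-Co3*, *mt-Atp6* and *mt-Rnr2*. All 10 were listed in both deposited tables, among 17646 genes for male and 17223 genes for female hearts, and all 10 passed the filter on low values in both.

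CM-*Il11*-Tg mice carried 1 copy each of a Rosa26-*Il11* transgene and of the α-MHC-MerCreMer (MCM) transgene, so that the cardiomyocyte-specific α-MHC promoter drove a Cre that tamoxifen activates. Control mice were littermates of matching age with 1 copy of MCM and no *Il11* transgene, and they received tamoxifen too. MCM was thus shared by controls and transgenic mice, and the labels do not give the time from tamoxifen to collection for the controls. Tamoxifen was injected intraperitoneally at 20 mg/kg on 5 consecutive days from 8 weeks of age, and transgenic hearts were taken 1, 3 or 6 weeks later. Uninduced mice carried both transgenes and received no tamoxifen. The labels place controls and uninduced hearts at baseline, and the age of uninduced mice at collection is not given. The Rosa26-*Il11* line, given in the methods as females, was on a C57BL/6N background. The MCM line, given as males, was on a C57BL/6J background. The tissue was labelled heart, and the study describes it as left ventricular.

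Each sex had 5 groups with 4 libraries each, except male controls and male hearts at 6 weeks, which had 3 each. The other 2 of the 40 libraries carried conflicting labels and entered no comparison. Separate replicate numbers were taken as separate hearts, and p-values measure only the spread between them. Depth ran from 16663513 to 65333832 reads on listed genes per library. *Il11*, the induced gene, was at 0 to 0.166 CPM (reads per gene scaled to the library's size) in controls of both sexes, at 15.5 to 49.2 CPM in uninduced hearts and at 328 to 819 CPM in hearts 1 to 6 weeks after tamoxifen, so that uninduced hearts were above controls in every library. Cardiomyocyte genes were abundant throughout, with summed levels of 15 markers between 52768 and 92371 CPM per library. All CPM values below are as deposited: each is a count of reads over a scaling factor of its library, so the columns do not share 1 total.

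The mitochondrial genome is a small circular DNA that encodes a few proteins, all of them subunits of the respiratory chain or of ATP synthase, together with its own ribosomal RNAs and the transfer RNAs that translate them. It is transcribed as long precursors from both strands by a dedicated polymerase, and the precursors are cut apart, mostly at the tRNAs between them, into single RNAs. Most of the messenger RNAs receive a short poly(A) tail, which in some of them completes the stop codon. The heart, which depends on oxidative metabolism, is rich in these transcripts. *mt-Nd1*, *mt-Nd2*, *mt-Nd4* and *mt-Nd5* encode subunits of complex I, *mt-Cytb* encodes cytochrome b of complex III, *mt-Co1*, *mt-Co2* and *mt-Co3* encode the core of complex IV, *mt-Atp6* encodes a subunit of ATP synthase, and *mt-Rnr2* is the 16S ribosomal RNA of the mitochondrial ribosome.

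All 10 members lie on the same strand, the + strand of the GRCm39 reference. *mt-Rnr2* lies first, at chrM:1094-2675, followed by *mt-Nd1* at chrM:2751-3707, *mt-Nd2* at chrM:3914-4951, *mt-Co1* at chrM:5328-6872 and *mt-Co2* at chrM:7013-7696. *mt-Atp6* at chrM:7927-8607 shares its last base with the first base of *mt-Co3* at chrM:8607-9390, and *mt-Nd4* at chrM:10167-11544, *mt-Nd5* at chrM:11742-13565 and *mt-Cytb* at chrM:14145-15288 follow. These genes have no introns. *mt-Atp6* and *mt-Nd4* also overlap the mRNAs *mt-Atp8* and *mt-Nd4l* on the same strand, and the end of *mt-Nd5* overlaps *mt-Nd6* on the other strand. How the counting treated overlaps and strand was not given in the sources used here.

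Because the libraries were made from poly(A) RNA, the 3′ ends of the transcripts are where capture took place. The last 30 bases of 5 members are shown, 5′ to 3′, to display the kinds of ends. Capitals mark the encoded part of the stop codon.
mt-Nd1: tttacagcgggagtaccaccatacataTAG
mt-Co1: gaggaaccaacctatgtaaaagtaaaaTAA
mt-Co3: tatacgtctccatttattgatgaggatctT
mt-Cytb: tcgaagacaaaatactaaaattatatccaT
mt-Rnr2: atacgtacaccctctaacctagagaaggtt
*mt-Nd1* and *mt-Co1* end in a whole stop codon, and *mt-Co3*, *mt-Cytb* and likewise *mt-Nd4* end in a single T that needs the tail to become a stop. *mt-Rnr2* has no reading frame.

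Part of this genome also has a copy in the nucleus, which bears on what a read from these genes can be assigned to. The longest copy, at chr1:24650616-24655269 on the - strand, matched mitochondrial bases 6390 to 11042 with 99.94% identity over 4654 aligned columns, with 2 mismatches and 1 gap. It covered 100% of *mt-Co2*, *mt-Atp6* and *mt-Co3*, 63.6% of *mt-Nd4* and 31.3% of *mt-Co1*. The stretch around the mismatch T9461C, in *mt-Nd3*, is printed to show how alike the sequences are. Both sequences are of the reference genome, and the bases carried by these mice were not examined. In the name the mitochondrial base comes first, positions are counted along chrM, and the base that differs is in capitals.
chrM: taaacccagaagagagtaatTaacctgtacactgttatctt
chr1 copy, reverse complement: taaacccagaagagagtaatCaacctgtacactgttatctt
The other mismatch, A6393T, lies in *mt-Co1*. Shorter copies included those on chr2 (97.36% identity, chrM bases 4441 to 7699), on chr13 (95.18%, 12446 to 13400, within *mt-Nd5*), on chr5 (97.91%, 4850 to 5231, which reaches the end of *mt-Nd2*) and on chr10 (97.84%, 1512 to 1881, within *mt-Rnr2*). A further one on chr2, of 129 aligned columns and 100% identity, held bases 11514 to 11642 and thus the end of *mt-Nd4*.

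Pseudogenes annotated in the nuclear copies were listed in both tables as 11 rows. Of these, 5 were compared with a member. Over all 38 grouped libraries, the ratio of *Gm28437* to *mt-Co3* ran only from 1.0000 to 1.0002 and that of *Gm28661* to *mt-Co2* from 1.0002 to 1.0012. *Gm10925* was at 1.15 to 1.23 times *mt-Atp6*, *Gm28439* at 0.464 to 0.869 times *mt-Nd4* and *Gm29216* at 0.241 to 0.371 times *mt-Co1*. The value of *mt-Co3* was thus repeated almost read for read at its nuclear copy in every library. The tables do not tell reads of such a member from reads of its copy, so values of *mt-Co2*, *mt-Atp6*, *mt-Co3*, *mt-Nd4* and *mt-Co1* are uncertain to that extent. *mt-Rnr2*, *mt-Nd1*, *mt-Nd2*, *mt-Nd5* and *mt-Cytb* lie outside the chr1 copy. Shorter and less alike copies, named above, reach into *mt-Rnr2*, *mt-Nd2* and *mt-Nd5*. The longer chr2 copy holds the end of *mt-Nd2* and all of *mt-Co1* and *mt-Co2*.

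In control hearts, levels per kilobase of transcript put the 3 cytochrome oxidase mRNAs and *mt-Atp6* highest and *mt-Rnr2* lowest. On this scale *mt-Co1* had a mean of 57220 CPM per kb in male and 64757 CPM per kb in female controls. *mt-Co2* came next, at 44275 and 52888 CPM per kb. *mt-Atp6* and *mt-Co3* exchanged places 3 and 4 between the sexes, and their ranges overlapped in both. *mt-Cytb*, *mt-Nd1*, *mt-Nd4*, *mt-Nd2* and *mt-Nd5* followed in that order, down to 10357 CPM per kb in male and 8877 CPM per kb in female controls. *mt-Rnr2* stood at 7105 and 7777 CPM per kb, and a level after poly(A) selection is not the level in the cell. In males the ranges of the first 4 places overlapped from each to the next, as did those of *mt-Cytb*, *mt-Nd1* and *mt-Nd4*. In females the neighbours *mt-Co3* and *mt-Atp6*, *mt-Nd1* and *mt-Nd4*, and *mt-Nd5* and *mt-Rnr2* overlapped.

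Together the 10 members took 24.0% to 29.5% of the reads in control libraries and on average a smaller share in the hearts of every transgenic group. The total includes the pseudogene rows of the nuclear copies, which repeat reads of some members. With those rows left out, the share was 27.1% to 34.6% in controls and 7.41% to 28.03% after tamoxifen. In male controls the share of reads on listed genes was 25.7% ± 1.45 (SD, n = 3), against 20.1% ± 2.91 in uninduced hearts (n = 4), 15.1% ± 5.35 at 1 week (n = 4), 19.96% ± 2.25 at 3 weeks (n = 4) and 20.9% ± 3.69 at 6 weeks (n = 3). In female controls it was 28.01% ± 1.21, against 24.2% ± 1.41 in uninduced hearts, 21.2% ± 1.83 at 1 week, 20.7% ± 1.88 at 3 weeks and 18.4% ± 2.90 at 6 weeks (n = 4 each). Every female transgenic library was below every female control, since the lowest control was at 26.8% and the highest uninduced heart at 25.7%. In males the ranges at 6 weeks (17.2 to 24.5%) and in controls (24.0 to 26.6%) overlapped through 1 library. The share at 1 week spread widely because replicate 4 was at 7.119%, and without it the mean was 17.7% ± 0.881 (n = 3). A share of reads falls when other transcripts rise as well as when these fall, and in whole tissue fewer cells of a type and less RNA per cell cannot be told apart.

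**Figure D1:**
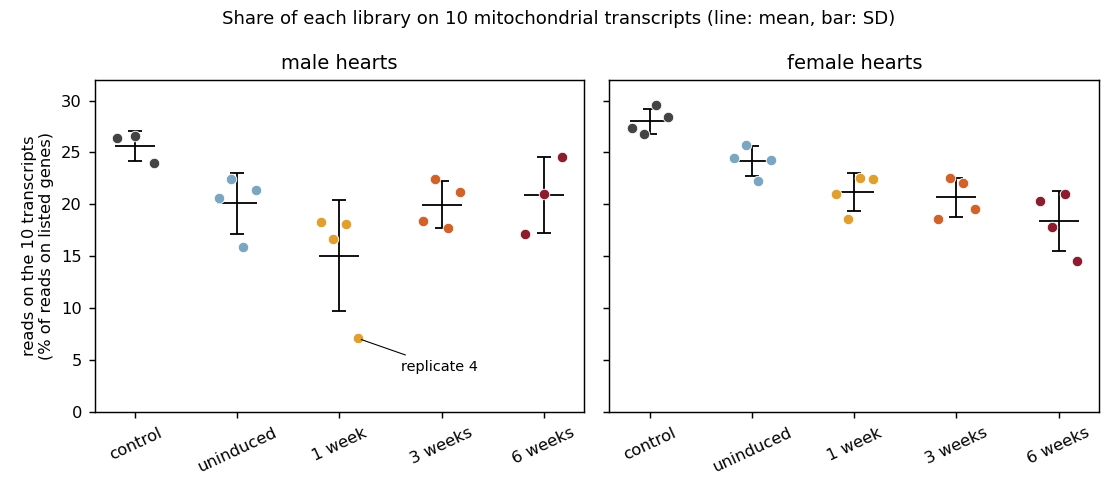
Summed share of the 10 mitochondrial transcripts among reads on listed genes (y axis, %) in each library, by group (x axis) and sex (panels); points are libraries, lines and bars the mean and SD. Control hearts sit at 24.0 to 29.5%, and 1 male library at 1 week sits alone at 7.119%.

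*mt-Rnr2*, the 16S ribosomal RNA, was lower than in controls at every time after tamoxifen in both sexes. In male controls it was at 12009, 12317 and 9392 CPM, and uninduced male hearts had 8145, 8749, 9628 and 9261 CPM. At 1 week the male hearts had 5335, 3052, 4013 and 4390 CPM, at 3 weeks 5565, 5229, 6135 and 6546 CPM, and at 6 weeks 4725, 6295 and 6319 CPM. No male library after tamoxifen reached the lowest control or the lowest uninduced heart. The log2 fold change against control was -1.44 (SE 0.205) at 1 week, -0.93 (SE 0.205) at 3 weeks and -0.96 (SE 0.22) at 6 weeks, with limma adjusted p of 2.89e-05, 0.00241 and 0.00278 (Benjamini-Hochberg over all genes tested). Uninduced male hearts, at -0.32, did not pass the test (limma adjusted p = 0.618), with a 95% interval from -0.75 to 0.11.

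In female controls *mt-Rnr2* was at 12352, 11449, 13044 and 12367 CPM, and uninduced female hearts had 10461, 8963, 9762 and 15454 CPM. At 1 week the values were 4396, 4905, 5749 and 6206 CPM, at 3 weeks 4688, 5712, 5400 and 4680 CPM, and at 6 weeks 5024, 4719, 5548 and 5340 CPM. The 12 female libraries after tamoxifen lay close together and below all others, while the uninduced hearts spread on both sides of the controls. *mt-Rnr2* fell by 1.22, 1.27 and 1.26 on the log2 scale at 1, 3 and 6 weeks (SE 0.167 each), with limma adjusted p of 1.1e-05, 5.79e-06 and 4.99e-06. Uninduced female hearts, at -0.17, did not pass (limma adjusted p = 0.67).

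*mt-Rnr2* also passed the test against uninduced hearts, which differ from the induced hearts in tamoxifen and in *Il11* level. They may differ in age too, as their age at collection is not given. In males it fell by 1.12, 0.61 and 0.64 on the log2 scale at 1, 3 and 6 weeks, with limma adjusted p of 0.000356, 0.0333 and 0.0324. The latter 2 calls were lost in several alternative settings, as given in the closing section. In females the differences were -1.05, -1.10 and -1.08, with limma adjusted p of 0.000194, 8.12e-05 and 5.98e-05. These comparisons share the induced libraries with the comparisons against control.

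**Figure D2:**
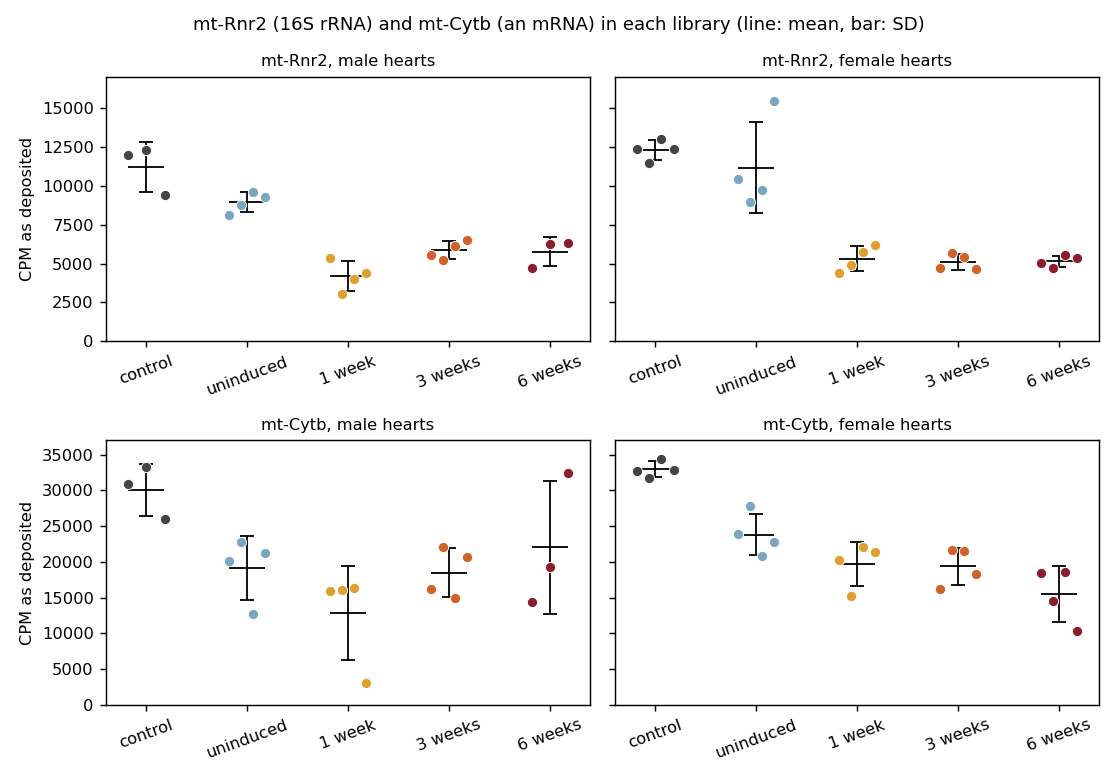
*mt-Rnr2* (upper panels) and *mt-Cytb* (lower panels) in CPM as deposited (y axis) in each library by group and sex; lines and bars are the mean and SD. *mt-Rnr2* lies at 3052 to 6546 CPM in every library after tamoxifen, whereas *mt-Cytb* spreads from 3009 to 32403 CPM in male libraries after tamoxifen.

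Of all 10 members, 9 were called lower than control in male hearts at 1 week, where 14.6% of the 16931 genes tested were called lower. At 3 and 6 weeks 1 member was called in males, in both cases *mt-Rnr2*, where 8.1% and 10.9% of genes were called lower. In females all 10 were called lower at 1, 3 and 6 weeks, where 13.1%, 14.5% and 21% of the 16956 genes tested were called lower. At 1 week the female calls of *mt-Co1* and *mt-Nd5* were lost in 14 and 11 of 22 alternative settings. No member was called in uninduced hearts by limma, edgeR or DESeq2, where 0.0354% of genes were called lower in males and 0.466% in females. At an unadjusted p under 0.05 by limma, 1 member passed in uninduced males, *mt-Nd5*, and 2 in uninduced females, *mt-Nd1* and *mt-Cytb*.

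The median log2 fold change of the 10 members against control was -0.60, -1.41, -0.63 and -0.51 in uninduced, 1-week, 3-week and 6-week male hearts, and -0.38, -0.76, -0.79 and -1.08 in the same order in female hearts. The median of all genes tested was within 0.03 of 0 in each of these comparisons. This median depends on the scaling. With scaling to all listed reads it was 0.13 to 0.33, and the median of the members was -1.05 to -0.23. In males every library was below every control for 7 members in uninduced hearts, 10 at 1 week, 10 at 3 weeks and 2 at 6 weeks, against 6.74%, 18.9%, 14.7% and 17.3% of all genes tested. In females the count was 6, 10, 10 and 10, against 3.11%, 16.2%, 18.6% and 17.9%. Most members in uninduced hearts were therefore below the controls in value, without passing the test across all genes.

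**Figure D3:**
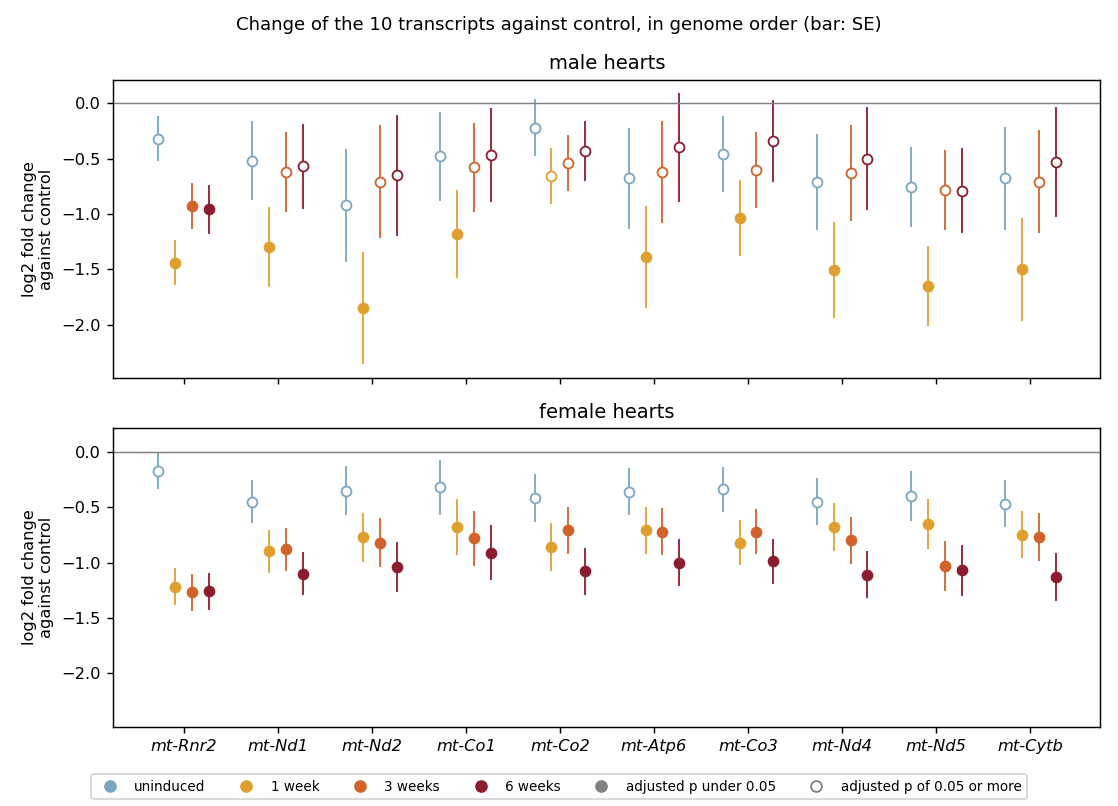
Log2 fold change against control (y axis) of each of the 10 members (x axis) in male (upper panel) and female (lower panel) hearts, by group; points are estimates, bars the SE, and filled points have a limma adjusted p under 0.05. Estimates are below 0 in every group; all female points after tamoxifen are filled, as are 9 of 10 male points at 1 week, whereas at 3 and 6 weeks only *mt-Rnr2* is filled in males.

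Among the complex I mRNAs, *mt-Nd5*, which encodes a proton-pumping subunit, showed the clearest difference in males at 1 week. Male controls had 17273, 21827 and 17575 CPM, and the 1-week hearts had 7801, 7042, 7929 and 2915 CPM. The groups were far apart, with a log2 fold change of -1.65 (SE 0.361, limma adjusted p = 0.00163). At 3 and 6 weeks the male hearts spread from 6609 to 18225 CPM and did not pass (-0.78 and -0.79, limma adjusted p = 0.14 and 0.138). In females the controls were at 14625 to 18998 CPM, and the 3-week hearts were at 7612 to 8201 CPM. *mt-Nd5* fell by 0.65 on the log2 scale at 1 week, by 1.03 at 3 weeks and by 1.07 at 6 weeks in females, with limma adjusted p of 0.0387, 0.00171 and 0.000883. Its female call at 1 week was lost in 11 of 22 alternative settings.

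*mt-Nd1* and *mt-Nd2*, which lie next to each other just downstream of the ribosomal RNAs, encode further membrane subunits of complex I. *mt-Nd1* was at 21705, 21831 and 17315 CPM in male controls and at 10990, 10541, 11750 and 3266 CPM at 1 week, where it fell by 1.30 on the log2 scale (limma adjusted p = 0.00866). *mt-Nd2* had 16620, 17187 and 13569 CPM in male controls and 7095, 6845, 6727 and 1108 CPM at 1 week, with the largest estimate of all members (-1.85, SE 0.51, limma adjusted p = 0.00886). For both, the 4 hearts at 1 week were below all controls, and replicate 4 was far below the other 3. In females *mt-Nd1* was at 21757 to 25001 CPM in controls and 7979 to 13579 CPM at 6 weeks (-1.10, SE 0.196, limma adjusted p = 0.000147). *mt-Nd2* in females went from 15006 to 18870 CPM in controls to 4941 to 11854 CPM at 6 weeks (-1.04, limma adjusted p = 0.000847).

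*mt-Nd4*, a complex I mRNA whose first part has a copy on chr1, had 28313, 29032 and 23316 CPM in male controls and 13490, 12900, 13899 and 3215 CPM at 1 week (-1.51, SE 0.433, limma adjusted p = 0.0113). At 6 weeks the male hearts had 13117, 18216 and 28414 CPM, of which the last, replicate 4, lay within the control range. Female controls were at 27588 to 32079 CPM and female hearts at 6 weeks at 9336 to 18821 CPM, with no overlap (-1.11, limma adjusted p = 0.000336).

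*mt-Cytb*, the only subunit of complex III that this genome encodes, is free of the chr1 copy. Male controls had 30920, 33227 and 26067 CPM, uninduced hearts 20131, 22750, 12676 and 21206 CPM, and 1-week hearts 15864, 16002, 16405 and 3009 CPM. At 3 weeks the values were 16266, 22060, 14923 and 20631 CPM, and at 6 weeks 14348, 19327 and 32403 CPM. It was below all controls in every uninduced, 1-week and 3-week male heart, but replicate 4 at 6 weeks stood among the controls. The test was passed in males at 1 week (-1.50, SE 0.466, limma adjusted p = 0.018), while the 3-week and 6-week differences of -0.71 and -0.53 were not called (limma adjusted p = 0.314 and 0.466). Female controls had 32737, 31707, 34427 and 32888 CPM and 6-week hearts 18440, 14588, 18572 and 10279 CPM. There the fall was 0.75, 0.77 and 1.13 on the log2 scale at 1, 3 and 6 weeks, with limma adjusted p of 0.0111, 0.00864 and 0.000272.

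*mt-Co1*, the catalytic core of cytochrome oxidase and the most abundant member, had 95218, 93486 and 76513 CPM in male controls and 52508, 46469, 53155 and 17766 CPM at 1 week (-1.18, SE 0.399, limma adjusted p = 0.0291). At 6 weeks the male hearts had 49310, 63768 and 80998 CPM and overlapped the controls. In females the controls were at 97669, 95285, 105852 and 101391 CPM and the 6-week hearts at 57856, 53611, 61891 and 41460 CPM. The female groups did not overlap, and *mt-Co1* fell by 0.68, 0.78 and 0.91 on the log2 scale at 1, 3 and 6 weeks (limma adjusted p = 0.0477, 0.022 and 0.00627). Its female call at 1 week was lost in 14 of 22 alternative settings.

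*mt-Co2* was the member not called in males at 1 week. Male controls had 33880, 30905 and 26068 CPM and the 1-week hearts 20985, 22065, 21417 and 13381 CPM, which do not overlap, yet the difference of -0.66 (SE 0.255) had a limma adjusted p of 0.0529. At 6 weeks the male hearts, at 20716, 21917 and 24336 CPM, were also all below the controls (-0.43, limma adjusted p = 0.252). In females *mt-Co2* went from 34564 to 37820 CPM in controls to 14819 to 21822 CPM at 6 weeks, a fall of 1.08 on the log2 scale (limma adjusted p = 0.000456).

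*mt-Co3* and *mt-Atp6*, which are cut from 1 joint stretch of the precursor and both lie within the chr1 copy, followed the other mRNAs. *mt-Co3* had 30671, 28782 and 23354 CPM in male controls and 17762, 17496, 16643 and 6112 CPM at 1 week (-1.04, limma adjusted p = 0.0252). *mt-Atp6* had 28969, 27965 and 21995 CPM in male controls and 15080, 14489, 15092 and 3027 CPM at 1 week (-1.39, limma adjusted p = 0.0253). In females at 6 weeks *mt-Co3* was at 13469 to 21858 CPM against 34785 to 37739 CPM in controls (-0.99, limma adjusted p = 0.000532). *mt-Atp6* was at 10235 to 18245 CPM against 28284 to 32046 CPM (-1.0, limma adjusted p = 0.000737).

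Replicate 4 of the male hearts at 1 week stood apart, and it did so for the mRNAs and not for *mt-Rnr2*. Relative to the mean of the other 3 hearts of its group, it held *mt-Rnr2* at 106.2%, *mt-Co2* at 62.3%, *mt-Nd5* at 38.4%, *mt-Co3* at 35.3%, *mt-Co1* at 35.0%, *mt-Nd1* at 29.4%, *mt-Nd4* at 23.9%, *mt-Atp6* at 20.3%, *mt-Cytb* at 18.7% and *mt-Nd2* at 16.1%. With this library left out, the other 3 hearts still gave 9 called members, where 14.3% of genes were called lower. Their median log2 fold change against control was -0.88 in place of -1.41. *mt-Rnr2* was at -1.47 (limma adjusted p = 3e-05), *mt-Nd5* at -1.31 (0.00328), *mt-Nd2* at -1.19 (0.0123), *mt-Cytb* at -0.89 (0.0245) and *mt-Co1* at -0.80 (0.041), by limma. *mt-Co2*, at -0.49, remained uncalled (limma adjusted p = 0.0761).

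**Figure D4:**
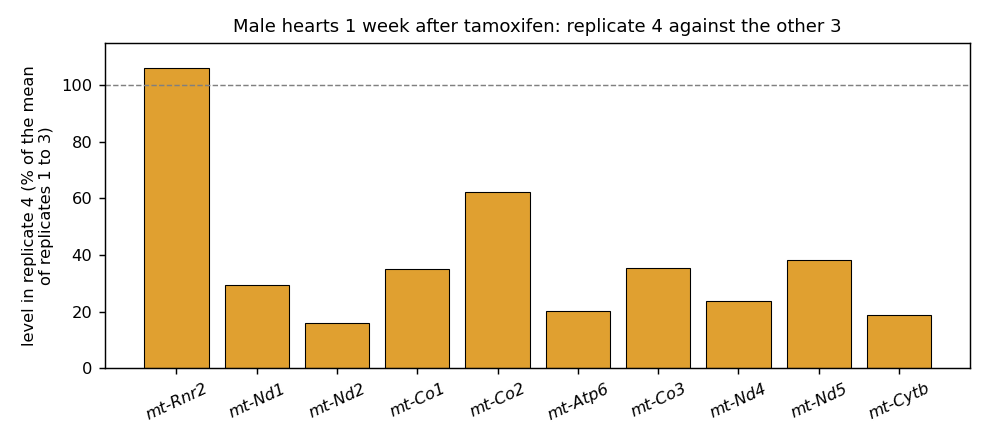
Level of each member in replicate 4 of the male hearts at 1 week (y axis) as a percent of the mean of replicates 1 to 3; the dashed line marks 100%. *mt-Rnr2* is at 106.2% and the 9 mRNAs range from 16.1% to 62.3%.

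No difference between the weeks after tamoxifen passed the test. None of the 10 members was called between 3 weeks and 1 week, between 6 weeks and 1 week or between 6 and 3 weeks in either sex by limma, nor by edgeR or DESeq2 on recovered reads. The share of genes called in either direction was 0.0177%, 0.165% and 0% in males and 0.218%, 1.03% and 0% in females, in that order. At an unadjusted p under 0.05, 4, 6 and 0 members passed in males and none in females. In males at 3 weeks *mt-Nd2* (1.14, SE 0.473), *mt-Nd4* (0.88, SE 0.401) and *mt-Nd5* (0.87, SE 0.335) were above every 1-week library without being called (limma adjusted p = 0.257, 0.293 and 0.227), and were at 0.48, 0.36 and 0.53 without replicate 4 at 1 week. The male median differences of 0.73 and 0.80 against 1 week were 0.23 and 0.39 without replicate 4 at 1 week, when 1 member in each comparison passed at an unadjusted p under 0.05.

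Against uninduced hearts, *mt-Rnr2* was the only member called in males at 1, 3 and 6 weeks, where 6.66%, 5.46% and 7.4% of genes were called lower. In females it was the only one called at 1 and 3 weeks (4.26% and 6.15% of genes), while 9 members were called at 6 weeks (9.08%), all except *mt-Co1* (-0.59, limma adjusted p = 0.0919). The median log2 difference of the members from uninduced hearts was -0.79, -0.07 and 0.07 in males and -0.39, -0.41 and -0.66 in females. The male mRNA values at 3 and 6 weeks thus lay around the uninduced level: *mt-Cytb* differed from it by -0.04 at 3 weeks, with a 95% interval from -0.94 to 0.86, and by 0.15 at 6 weeks, from -0.82 to 1.12. The female median of -0.66 at 6 weeks was -0.38 when the 5 libraries described next were left out. That left 1 female heart at 6 weeks, so no calls are given for it.

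A group of 5 female libraries had low levels of 4 RNAs that stay in the nucleus, among them *Malat1*. Their summed level was 341 CPM in uninduced replicate 4, 375 CPM in 1-week replicate 2, and 424, 516 and 560 CPM in 6-week replicates 2, 3 and 4, against 1076 to 2741 CPM in all other grouped libraries. *Malat1* was called lower at 6 weeks in both sexes. In males its mean was 1257 CPM in controls and 754 CPM at 6 weeks. The male sum of all 4 RNAs was not lower on average, with means of 1888 CPM in controls and 2028 CPM at 6 weeks. In 4 of these 5 libraries the ratio of *mt-Co2* to *mt-Co3* was low, at 0.767, 0.789, 0.834 and 0.857, against 0.994 to 1.02 in female controls, and it was 1.10 in 6-week replicate 4. Without the 5 libraries, 10 and 10 members were called lower than control at 1 and 3 weeks, where 14.1% and 18.8% of genes were called lower. At 6 weeks this left 1 heart, replicate 1, so no calls are given. The members' median log2 fold change against control in that heart was -0.84, in place of -1.08 for the group. The part of this difference between libraries in the values at 6 weeks was not tested.

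Within the mitochondrial transcripts, *mt-Rnr2* was lower relative to the mRNAs in most induced female hearts than in controls. It amounted to 3.82 to 4.05% of the sum of the 9 mRNAs in male and 3.76 to 3.92% in female controls. In females it was at 2.26 to 3.02% at 1 week, 2.64 to 2.95% at 3 weeks and 2.75 to 4.52% at 6 weeks. The first 2 of these ranges lay below all controls, and that at 6 weeks overlapped them. In males at 1 week replicates 1 to 3 were at 3.30, 1.98 and 2.46%, and replicate 4, with its few mRNA reads, was at 8.16%. Uninduced hearts spread more widely than controls, from 3.31 to 5.67% in females and up to 6.77% in male replicate 3. That library also had a high ratio of *mt-Co2* to *mt-Co3*, 1.55, as did male replicate 4 at 1 week with 2.19, against 1.07 to 1.12 in male controls. *mt-Co2* is the member that stood highest among the mRNAs in replicate 4. These ratios are given without a test, as they were chosen after values had been seen.

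Other rows of the mitochondrial genome were called lower in the same comparisons. *mt-Rnr1*, the 12S ribosomal RNA, was at 3697 to 4294 CPM in male controls, 1291 to 2116 CPM at 1 week, 1965 to 2206 CPM at 3 weeks and 1782 to 2457 CPM at 6 weeks. It fell by 1.32, 0.93 and 0.86 on the log2 scale (limma adjusted p = 1.24e-05, 0.000555 and 0.00179). In females *mt-Rnr1* went from 4593 to 5500 CPM in controls to 1834 to 2402 CPM at 6 weeks (-1.21, limma adjusted p = 6.7e-06), after -1.07 at 1 week and -1.15 at 3 weeks. Both ribosomal RNAs were therefore lower in all 6 comparisons of induced hearts with controls, including those where male mRNAs were not called.

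Of the 4 remaining mRNAs, *mt-Atp8*, *mt-Nd3*, *mt-Nd4l* and *mt-Nd6*, all 4 were called lower in males at 1 week and in females at 1, 3 and 6 weeks, 1 (*mt-Nd6*) in males at 3 weeks and 0 at 6 weeks. None was called in uninduced hearts. *mt-Nd6* is the only mRNA of the opposite strand, and it went from 6252 to 7023 CPM in male controls to 1915 to 4991 CPM at 1 week (-0.90, limma adjusted p = 0.0127). In females it was at 6669 to 8437 CPM in controls and 2991 to 4522 CPM at 6 weeks (-0.99, limma adjusted p = 6.45e-05). Rows of genes on both strands were thus lower. As the strand setting of the counting was not given, it cannot be told whether the *mt-Nd6* row holds only reads of its own strand.

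Transfer RNA rows, which these libraries capture poorly and which may count pieces of precursors, gave few calls in males and more in females: at 1, 3 and 6 weeks, 8, 2 and 0 of 19 tested male rows and 12, 13 and 10 of 20 tested female rows were lower. *mt-Tk*, the lysine tRNA between *mt-Co2* and *mt-Atp8*, was called higher in uninduced, 3-week and 6-week female hearts (0.86, 0.61 and 0.75, limma adjusted p = 0.0084, 0.0135 and 0.00241), and it was the only mitochondrial row called higher in the comparisons with control. It lies within the chr1 copy.

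Lists of nuclear genes of the same machinery had smaller median differences from control than the mitochondrial transcripts in each induced group. Most respiratory chain subunits are encoded in the nucleus, made in the cytosol and imported, and they assemble with the mitochondrial subunits. Of 81 such subunits of complexes I to V, limma called 5 (1 week), 19 (3 weeks) and 14 (6 weeks) lower in male hearts. In female hearts the counts were 77, 60 and 74 at the same times. The medians were -0.03, -0.33 and -0.20 in males and -0.51, -0.42 and -0.49 in females, beside medians of all genes within 0.03 of 0. In male hearts at 1 week, where the members had a median of -1.41, or -0.88 without replicate 4, the nuclear subunits had a median of -0.03, and the share of them called lower, 6.17%, was below the 14.6% of all genes. None was called in uninduced hearts. Relative to reads outside the mitochondrial genome, the counts were 2, 1 and 8 in male and 41, 23 and 44 in female hearts. The members' calls against control were then 9, 1 and 1 in males and 7, 10 and 10 in females. All genes called lower fell from 2475, 1372 and 1838 to 1434, 719 and 1086 of 16931 tested in males. In females they fell from 2227, 2457 and 3567 to 1012, 1077 and 1827 of 16956. The lists of the next paragraphs also lost calls, as given in the closing section.

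Subunits with large differences in both sexes at 6 weeks included *Cox7a1*, a muscle form of a complex IV subunit (-0.84 in males and -0.83 in females, limma adjusted p = 0.00757 and 3.18e-05), and *Ndufa10* of complex I (-0.58 and -0.67, limma adjusted p = 0.00262 and 3.77e-05). *Ndufs1* (-0.79 and -0.38) and *Ndufs4* (-0.50 and -0.66) of complex I, *Sdha*, the catalytic subunit of complex II (-0.71 and -0.50), *Uqcrc2* of complex III (-0.58 and -0.51), *Ndufa4* of complex IV (-0.38 and -0.67) and *Atp5k* of ATP synthase (-0.73 and -0.42) were called lower in both sexes too. *Atpif1*, which encodes the inhibitor of ATP synthase and is no enzyme subunit, was the gene of this list called higher at 6 weeks, at 0.96 and 0.88 (limma adjusted p = 0.00713 and 2.81e-05).

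The counts of the next lists are to be read beside the genes called lower among all tested, 14.6%, 8.1% and 10.9% in males and 13.1%, 14.5% and 21% in females at 1, 3 and 6 weeks. Of 82 genes named as mitochondrial ribosomal proteins, which assemble on *mt-Rnr1* and *mt-Rnr2*, 10, 11 and 20 were called lower in males and 58, 37 and 49 in females at 1, 3 and 6 weeks. Their medians were 0, -0.23 and -0.19 in males and -0.36, -0.27 and -0.32 in females. The male shares were 12.2%, 13.4% and 24.4%, of which that at 1 week was below the share of all genes. *Mrpl42* (-0.52 in males and -0.89 in females at 6 weeks), *Mrpl3* (-0.53 and -0.64) and the pseudogene row *Mrps36-ps1* (-0.62 and -0.57) had the largest differences among those called in both sexes.

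Of 18 genes for mitochondrial transcription and replication, 3, 2 and 3 were called lower in males and 4, 3 and 5 in females, or 16.7%, 11.1% and 16.7% and 22.2%, 16.7% and 27.8%. *Mterf2*, of the family of mitochondrial transcription termination factors, was the gene of this list named by the selection rule (-0.85 in males, limma adjusted p = 0.000524, and -0.65 in females, 0.00709). Of 29 genes for mitochondrial RNA processing and stability, 10, 6 and 10 were called lower in males and 10, 14 and 18 in females. They included *Ptcd3*, a protein of the small mitochondrial ribosomal subunit (-0.74 and -0.53 at 6 weeks, limma adjusted p = 4.33e-05 and 0.000255), *Supv3l1*, an RNA helicase of mitochondrial RNA decay (-0.54 and -0.64, limma adjusted p = 0.000573 and 9.67e-06), and *Fastkd1*, of a family of mitochondrial RNA-binding proteins (-0.62 and -0.52). Of 14 nuclear regulators of mitochondrial biogenesis, 7, 4 and 6 were called lower in males and 3, 7 and 3 in females. *Perm1*, a muscle regulator that acts with the estrogen-related receptors (-0.69 and -0.92), *Esrrb*, one of those receptors (-0.59 and -0.78), and *Sirt3*, a mitochondrial deacetylase (-0.45 and -0.56), had the largest differences at 6 weeks among those called in both sexes.

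**Figure D5:**
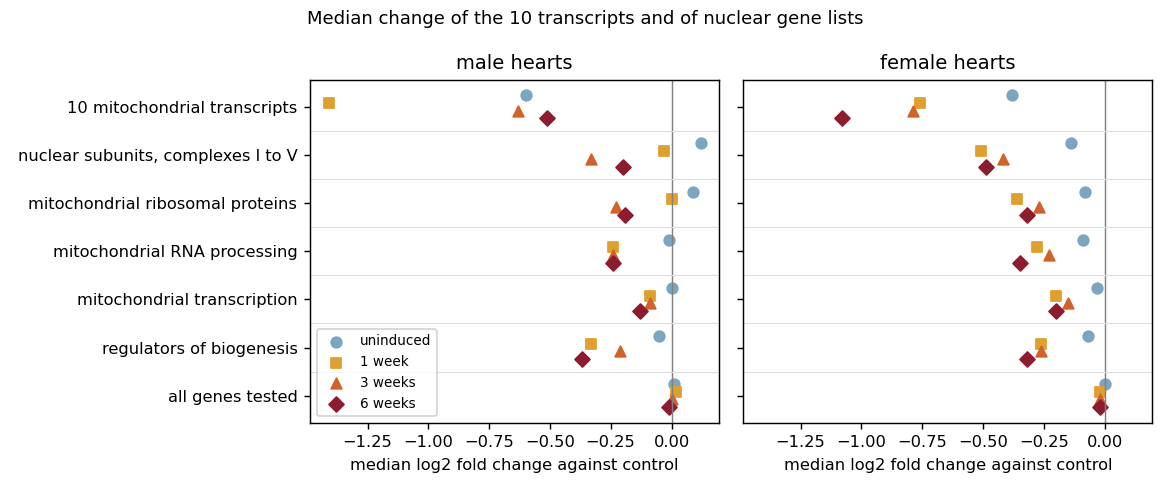
Median log2 fold change against control (x axis) of the 10 mitochondrial transcripts, of lists of nuclear genes for mitochondria and of all genes tested (y axis), in male and female hearts (panels); symbols and colours mark the groups. The members have medians of -0.51 to -1.41 in induced hearts, and all genes, on the deposited scaling, stay within 0.03 of 0.

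Levels of cell type markers also differed between the groups. In whole tissue they do not tell the number of cells from the level per cell. The 9 fibroblast markers summed to 1534 to 2014 CPM in male and 2012 to 2393 CPM in female controls, and to 5064 to 12487 CPM in induced hearts of both sexes, with 7 or 8 of 9 called higher at each time. All 9 macrophage markers were called higher at each time in both sexes, with sums of 217 to 377 CPM in controls and 857 to 1368 CPM in induced hearts. Of all 16931 genes tested in males, 3196, 2238 and 2742 were called higher at 1, 3 and 6 weeks. Of 16956 in females, 2586, 2848 and 3678 were. Genes called lower at these times were 14.6%, 8.1% and 10.9% of all tested in males and 13.1%, 14.5% and 21% in females. Of 15 cardiomyocyte markers, 3, 3 and 3 were called lower in males and 5, 5 and 7 in females at 1, 3 and 6 weeks. Their summed level was 80762 to 92371 CPM in male controls, 57299 to 83897 CPM at 1 week and 55991 to 68942 CPM at 6 weeks, and 63280 to 83505 CPM in female controls and 53364 to 63429 CPM at 6 weeks. Of 8 endothelial markers, 4, 3 and 4 were called lower in males and 5, 5 and 5 in females. Of 5 erythroid markers, all 5 were called higher in females at 1 week and none elsewhere after tamoxifen. Male replicate 4 at 6 weeks, whose mRNA values stood among the controls, had the highest erythroid sum, 15960 CPM against 467 to 8346 CPM in all other grouped libraries, the lowest male sum of nuclear-retained RNA, 1076 CPM, and a ratio of *mt-Co2* to *mt-Co3* of 0.819. Without it, 2 members were called lower against control at 6 weeks. Atrial markers, 2 in males and 3 in females, summed to 16.02 to 76.6 CPM in controls, 222 to 871 CPM in male and 86.3 to 322 CPM in female hearts at 1 week, 40.5 to 209 CPM at 3 weeks in both sexes, and 58.6 to 173 CPM at 6 weeks except for 1546 CPM in female replicate 2. At 1 week 1 atrial marker was called higher in each sex, as was 1 in males at 3 weeks and 1 in females at 6 weeks. Brown fat markers were at 224 to 521 CPM over all grouped libraries. The part of these marker differences in the values of the mitochondrial transcripts was not tested.

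No member was shown to respond differently between the sexes when the difference itself was tested. In a fit over both tables, the male minus female difference of the log2 fold change was called for none of the 10 members in uninduced hearts or at 1, 3 or 6 weeks (limma, adjusted p under 0.05), nor by edgeR or DESeq2, and limma called 0% of the 16627 genes tested, with 862, 2908, 691 and 2886 genes at an unadjusted p under 0.05. At an unadjusted p under 0.05 there were 0, 1, 0 and 1 members, *mt-Nd5* at 1 week (-1.01) and *mt-Co2* at 6 weeks (0.65). For *mt-Cytb* at 6 weeks the 95% interval of the difference ran from -0.46 to 1.67, and for *mt-Rnr2* from -0.24 to 0.82. The members' calls in females and not in males at 3 and 6 weeks are therefore no shown difference between the sexes. The tables were normalized separately.

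The nuclear genes whose levels ran most like the summed level of the 10 members across libraries were found by Pearson correlation on the log2 scale within each sex, over 8426 genes, leaving out the nuclear copies of mitochondrial sequence, with 18 male and 20 female libraries that share the same group differences and library factors. They were *Gm10874* (r = 0.91 in males and 0.96 in females), *Mpc1-ps* (0.96 and 0.89), *Mpc1*, a subunit of the mitochondrial pyruvate carrier (0.88 and 0.86), *Gm37829* (0.86 and 0.88) and *Mmachc*, which acts in cobalamin metabolism (0.84 and 0.86). *Gm10874* was called lower in females at 1, 3 and 6 weeks (-0.66, -0.68 and -0.98) and in males at 1 week (-0.99). *Mpc1* was at -0.29, -0.21 and -0.43 in females, called at 1 and 6 weeks, and at -0.32, -0.17 and -0.13 in males, with no call. The most opposite were *Cndp2* (-0.85 and -0.84), *Gm4332* (-0.88 and -0.84), *Rps20*, a cytosolic ribosomal protein (-0.84 and -0.85), *Clta*, a clathrin light chain (-0.83 and -0.88), and *Fkbp9* (-0.82 and -0.86). The correlations describe these libraries and carry no test.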

How the data were processed

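Poly(A) RNA of mouse hearts was sequenced as 60-base paired ends (NEBNext Ultra II Directional kit). Per the labels and the methods, the authors aligned reads with STAR to GRCm39 (Ensembl), counted genes with featureCounts and normalized with edgeR; strand and multi-mapping settings are not given in the sources used here. The authors deposited 1 table per sex of values named CPM, a signal per gene equal to read counts divided by a library factor; column sums ran from 817395 to 1196278, and 100% of values gave whole reads within 0.001. All 40 columns were matched to samples; 2 libraries with conflicting labels entered no group. The planned analysis had taken the unit as CPM; the same test was used.

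From these values, log2(value + 0.5) was fitted with limma 3.58.1 (trend), all groups of 1 sex in 1 fit, for genes at 0.5 or more in at least 3 libraries. Genes were called at a Benjamini-Hochberg adjusted p under 0.05 over all genes tested, two-sided; fold changes are on the log2(value + 0.5) scale. Differences between the sexes were tested in a joint fit over genes passing in both tables. Alternatives were edgeR 4.0.16 and DESeq2 1.42.0 on recovered reads, other scalings, pseudocounts and filters, and leaving out libraries. The scripts were tested on simulated data. Positions and sequences came from the GENCODE annotation and genome of GRCm39, a release other than the authors' Ensembl one. Nuclear copies were found with BLAST 2.17.0 at 95% identity over 100 bases or more. Lists covered nuclear subunits of complexes I to V, mitochondrial ribosomal proteins, transcription and replication, RNA processing, biogenesis regulators, and markers of cardiomyocytes, atrial cells, fibroblasts, endothelium, macrophages, erythroid cells, brown fat and nuclear-retained RNA. Members and lists were chosen with earlier results of these data known. The text names all members, the other mitochondrial ribosomal RNA and mRNA rows, and of the tRNA rows only *mt-Tk*, named because it was called higher. From each list of nuclear genes for mitochondria it names up to 3 genes with the largest mean change at 6 weeks among those called in both sexes in the same direction. It also names the 5 genes most like and the 5 most unlike the members.

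Replicate numbers were shared by groups. The correlation of same-numbered libraries' deviations from their group means averaged 0.0132 over 33 male pairs and 0.0255 over 40 female pairs, so the numbers were not taken to pair samples.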

Additional observations from a re-analysis of the deposited data

Results flagged for a closer look

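In groups of 4 libraries, the lowest or highest value was set apart where its gap to the next exceeded Dixon's 95% critical value for 4 samples as a part of the group's range; chance gives this in about 1 in 20 groups, and 9 of 88 were marked. Of the 9, 8 belong to 1 library, replicate 4 of the male hearts at 1 week. It was lowest in the summed share, 7.119%, and in 7 members: *mt-Nd1* at 3266 CPM, *mt-Nd2* at 1108 CPM, *mt-Co2* at 13381 CPM, *mt-Atp6* at 3027 CPM, *mt-Co3* at 6112 CPM, *mt-Nd4* at 3215 CPM and *mt-Cytb* at 3009 CPM. The 8 values share reads of 1 library and are not separate events. The ninth was *mt-Nd1* in replicate 2 of the female hearts at 1 week, at 10145 CPM, a library also low in nuclear-retained RNA. The cause was not tested in either.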

How the results depend on the processing

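The number of members called lower stayed within 1.5 times of the value given in 161 of 175 alternatives against control and in 102 of 134 against uninduced hearts. Between weeks (133 alternatives) and between sexes (119), members called in either direction were counted, and the count stayed at 0 in all that were run. Among single members, 1707 of 1798 kept their status as called or not called, 76 lost a call, 15 gained one and none changed direction. Results that were not called and stayed so, such as all members in uninduced hearts against control, are among the 1707. *mt-Rnr2* against control was called at 1, 3 and 6 weeks in both sexes under every alternative run except the requirement of a log2 fold change of at least 1, under which males at 3 and 6 weeks lost the call. Against uninduced males, that requirement also ended its call at 3 and 6 weeks, and of the other alternatives 9 of 21 did so at 3 weeks and 6 of 20 at 6 weeks. With the replicate block, 9 members were called in males at 1 week against control and 8 in females at 1 week, with 7 in place of 9 in females at 6 weeks against uninduced hearts, and no other count changed.

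Against control, males at 1 week had 3 called members with only the groups compared in the fit, and 5 to 10 when 1 library was left out (5 without control replicate 3). Males at 3 weeks had 5 with only those groups, 2 with edgeR, 2 with DESeq2 and 0 when a log2 fold change of at least 1 was required. Males at 6 weeks had 2 with DESeq2, 0 with that requirement, and 1 to 2 with 1 library left out (2 without 6-week replicate 4). Females had 4 at 1 week and 5 at 3 weeks with scaling to all listed reads, and 1 and 2 with the fold requirement. With 1 library left out, females at 1 week had 5 to 9 (5 without 1-week replicate 2).

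Against uninduced hearts, males at 1 week had 3 with DESeq2 and 1 to 2 with 1 library left out (2 without uninduced replicate 3). Males at 3 weeks had 0 with scaling to all listed reads, to reads outside the mitochondrial genome, or also outside its copies, and with the fold requirement. Males at 6 weeks had 0 with scaling to all listed reads, with only the groups compared, and with the fold requirement. Both had 0 to 1 with 1 library left out: 0 without uninduced replicate 2, 3 or 4, without 3-week replicate 1, 2 or 3 (at 3 weeks), and without 6-week replicate 1 (at 6 weeks). Females at 1 week had 2 with edgeR and 4 with DESeq2. Females at 3 weeks had 3 with edgeR, 5 with DESeq2 and 1 to 2 with 1 library left out (2 without uninduced replicate 3). Females at 6 weeks had 3 with scaling to all listed reads, 1 with only the groups compared and 1 with the fold requirement. With 1 library left out they had 1 to 10. The count was 1 without uninduced replicate 2 or 6-week replicate 4, 2 without 6-week replicate 2 and 3 without uninduced replicate 1. Leaving out the 5 libraries low in nuclear-retained RNA left 1 female heart at 6 weeks, so no count is given.

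The log2 ratio of the summed share to control, -0.36 in males at 3 weeks and -0.21, -0.40, -0.44 and -0.61 in uninduced, 1-week, 3-week and 6-week females, was -0.55, -0.36, -0.66, -0.70 and -0.94 as a ratio to reads outside the mitochondrial genome and its copies, an alternative chosen after seeing the data, as were leaving out the 5 libraries and all scalings that set the copies aside. As a ratio to reads outside the mitochondrial genome alone it was -0.55 and -0.59 in females at 1 and 3 weeks. The median log2 fold change of all genes against control was 0.13 to 0.33 when scaled to all listed reads and 0.06 to 0.16 when scaled to reads outside the mitochondrial genome, in place of values within 0.03 of 0. In females at 6 weeks 3567 genes were called lower and 3678 higher as reported, 1045 and 8356 with the former, and 1827 and 5702 with the latter.

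Scaled to reads outside the mitochondrial genome, genes called lower at 1, 3 and 6 weeks were 2, 1 and 8 of the nuclear subunits in males and 41, 23 and 44 in females. They were 1, 1 and 7 of the mitochondrial ribosomal proteins in males and 15, 8 and 15 in females, 4, 2 and 6 of the RNA processing genes in males and 4, 5 and 6 in females, and 1, 1 and 1 of the transcription genes in males and 0, 0 and 2 in females. The biogenesis regulators had 2 in females at 3 weeks. Among all genes tested, this scaling called 1434, 719 and 1086 lower in males and 1012, 1077 and 1827 in females. It keeps the pseudogene rows of the nuclear copies in the total. With those set aside too, the median of all genes against control was within 0.07 of 0, and the lists were not counted that way. The cause of these changes was not tested. With many reads on each member in every library, the spread between hearts, not counting error, sets the standard errors.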

Other observations

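In the 2 libraries with conflicting labels, the 10 members took 22.01% of reads in the one with *Il11* at 0.597 CPM and 26.03% in the one with *Il11* at 511 CPM. These libraries were placed in no group. The 11 nuclear pseudogene rows that copy mitochondrial sequence took between 3.93% and 14.9% of reads on listed genes in the grouped libraries. Of these rows, *Gm13339* was correlated with the summed members at -0.13 in males and -0.35 in females, while 9 others were at 0.88 to 0.99; *Gm4076* was below the level needed for the ranking.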
